A study of Homo sapiens with 6 samples.

Results

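HNF4A, HNF4G, FOXA1, FOXA2, FOXA3, CDX2 and GATA6 are transcription factors of the liver and gut lineage. They were examined in poly(A) RNA-seq of CAOV2 cells in which YAP was targeted by siRNA (siYAP, 3 libraries) and of cells given a non-targeting siRNA (siNT, 3 libraries). The 7 factors were named by symbol, and they were chosen by their values in this same contrast, siYAP against siNT, so their levels and fold changes are given as a description and carry no test. All 7 were found by Ensembl identifier among the 17211 genes listed, and all 7 passed the filter on low values. CAOV2 is labelled a human ovarian cancer cell line, although its titles use the word primary as well. Both groups were grown in the same serum-supplemented medium, received 100 pmol of siRNA with 6 µL of lipid reagent for 2 days and were collected at day 3. Since siYAP and siNT were bought from different companies, the knockdown and any other action of the siRNAs cannot be told apart. The libraries are labelled biological replicates of a single line, with nothing said of separate passages, so every p-value measures the spread between these libraries.

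Endoderm is the embryonic layer that gives rise to liver, pancreas, stomach and intestine. FOXA factors are forkhead proteins known as pioneer factors, since they bind their sites in compacted chromatin and open them for other factors, and GATA factors act beside them at the same enhancers. HNF4A and its paralog HNF4G are nuclear receptors that keep hepatocyte and enterocyte genes active, while CDX2 is the homeobox factor that specifies intestine. YAP is the co-activator restrained by the Hippo kinases; in mouse liver and intestine it is known to favour progenitor over differentiated states.

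The targeted gene itself was low in the siYAP libraries. YAP1 had 278, 327 and 294 normalized counts in siYAP replicates 1, 2 and 3, against 6221, 5801 and 5955 in siNT, which left 5.00% of the control mean. A normalized count is a read count divided by the authors' size factor of its library, and 1 read was worth 0.906 to 1.21 of them. The whole reads behind the values came to 29029760 to 31790340 per siYAP library and to 25478595 to 28928432 per siNT library. Over the whole table, limma on log2(value + 1) with Benjamini-Hochberg adjustment called 4926 of 17200 tested genes higher in siYAP (28.6%) and 4841 lower (28.1%). With libraries rescaled to equal totals the split was 6050 higher and 3700 lower. Most genes of the table thus passed, and counts in the gene lists are read against these shares. In bulk RNA, fewer cells of a kind and less RNA per cell cannot be told apart.

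The siYAP mean lay above the siNT mean for 5 of the 7 factors (HNF4A, HNF4G, FOXA1, CDX2 and FOXA3) and below it for 2 (FOXA2 and GATA6). In 5 of them every siYAP library was above every siNT library, in FOXA2 every siYAP library was below, and in GATA6 the groups overlapped. Over all tested genes the groups were separated upwards in 30.9% and downwards in 30.6%. The median log2 fold change of the 7 was 0.57, beside 0.0036 over all tested genes. The spread among the factors ran from 1.14 for HNF4G to -0.52 for FOXA2 on the log2 scale.

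**Figure D1:**
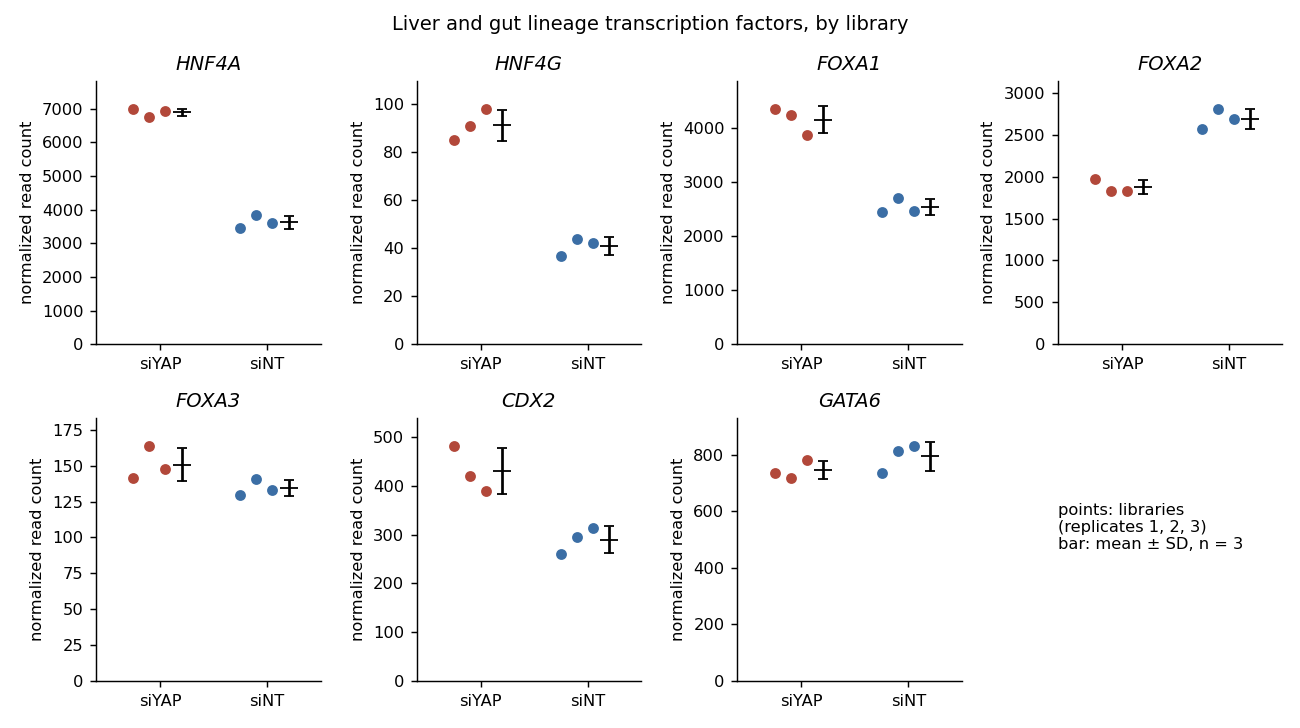
Normalized read count (vertical axes, from 0) of each of the 7 factors in each library, siYAP left of siNT; points are replicates 1, 2 and 3 and bars give the mean ± SD (n = 3). The siYAP points of HNF4A lie between 6765 and 6981, above the siNT points at 3446 to 3825, FOXA2 shows the opposite order, and the groups of GATA6 overlap.

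HNF4A (ENSG00000101076, protein-coding, GRCh38 chromosome 20, 44355700 to 44434596, plus strand), a master regulator of hepatocyte identity that is also active in gut epithelium, was among the well expressed factors in control cells. Its normalized counts were 6981, 6765 and 6920 in siYAP replicates 1, 2 and 3, against 3446, 3825 and 3593 in siNT. The siYAP libraries lay close together and all well above the siNT libraries. The means were 6889 ± 112 in siYAP and 3621 ± 191 in siNT (SD, n = 3 each), a ratio of 1.90 and a log2 fold change of 0.93 with a limma standard error of 0.0458. Of all tested genes, 7.84% had a higher log2 fold change. Behind these values stood 6854 to 7704 reads per siYAP library and 2973 to 3578 per siNT library.

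HNF4A has a pair of known promoters: the upstream one, called P2, is used in pancreas and gut and in the fetal liver, and the downstream one, called P1, dominates in the adult liver. Their RefSeq start sites lie 45540 bases apart, and counts per gene do not separate the transcripts that begin at each, so which of them carried the difference was not analysed here. Upstream windows are shown for the 3 factors that were higher by over 0.5 on the log2 scale and have an entry in the RefSeq promoter table, HNF4A, FOXA1 and CDX2. Each is the 250 bases before a RefSeq start site (build GRCh38.p14), written along the gene's own strand. Capitals mark matches, on either strand, to a core motif of a factor family. For FOXA factors the letters searched were GTAAACA, and for HNF4 factors they were CAAAGTC. For GATA factors they were AGATAA, and for CDX factors they were TTTATNG. For TEAD factors, through which YAP acts, the letters were GGAATG.
HNF4A P2, chr20:44355449-44355698, plus strand: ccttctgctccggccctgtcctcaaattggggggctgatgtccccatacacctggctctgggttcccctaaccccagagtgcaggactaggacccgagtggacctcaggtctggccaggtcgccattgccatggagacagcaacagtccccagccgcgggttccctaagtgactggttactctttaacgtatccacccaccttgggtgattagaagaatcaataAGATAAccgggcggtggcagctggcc
HNF4A P1, chr20:44400989-44401238, plus strand: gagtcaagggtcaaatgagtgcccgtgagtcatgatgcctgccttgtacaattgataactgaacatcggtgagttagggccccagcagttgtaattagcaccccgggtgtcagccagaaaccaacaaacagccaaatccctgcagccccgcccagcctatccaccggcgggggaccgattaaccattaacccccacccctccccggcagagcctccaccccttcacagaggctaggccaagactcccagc
FOXA1, chr14:37595250-37595499, minus strand: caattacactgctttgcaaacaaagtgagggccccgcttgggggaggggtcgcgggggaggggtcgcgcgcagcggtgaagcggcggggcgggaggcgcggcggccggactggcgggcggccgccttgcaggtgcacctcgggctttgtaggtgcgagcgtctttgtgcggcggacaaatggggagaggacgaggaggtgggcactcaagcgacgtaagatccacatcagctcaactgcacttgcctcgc
CDX2, chr13:27969316-27969565, minus strand: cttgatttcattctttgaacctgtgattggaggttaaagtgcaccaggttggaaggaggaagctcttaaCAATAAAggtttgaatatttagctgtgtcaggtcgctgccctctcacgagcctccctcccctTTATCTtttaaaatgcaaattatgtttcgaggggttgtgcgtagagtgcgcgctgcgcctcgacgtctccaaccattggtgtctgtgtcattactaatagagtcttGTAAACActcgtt

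In these windows CDX2 held the letters of 3 of the 5 motifs. Counted from its start site, the FOXA letters began at position -13, those of GATA at -119 and those of CDX at -181. The P2 window of HNF4A held the GATA letters at -26, and neither the P1 window nor that of FOXA1 held any of the 5. Of the windows not shown, that of FOXA3 held the CDX letters, read on the reverse strand as CTATAAA, at -31, and that of GATA6 held none. No 2 matches overlapped. Of all 35116 RefSeq windows of this length, 2.98% held the FOXA letters, 2.91% those of HNF4, 9.17% those of GATA, 8.93% those of CDX and 11.9% those of TEAD. The CDX2 window was also poorer in G and C than the others, at 45.2% against 67.2% for FOXA1 and a median of 58% over all windows. FOXA2 and HNF4G had no window.

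HNF4G (ENSG00000164749, GRCh38 chromosome 8, 75407914 to 75566843, plus strand), the paralog that shares intestinal binding sites with HNF4A in mice, was the least abundant of the 7 per kb of exon and had the highest ratio of siYAP to siNT. It had 85.2, 90.8 and 98.0 normalized counts in the siYAP libraries and 36.6, 43.8 and 42.3 in the siNT libraries. The groups did not overlap. The means were 91.3 ± 6.41 in siYAP and 40.9 ± 3.78 in siNT (SD, n = 3 each), a ratio of 2.23 and a log2 fold change of 1.14 with a limma standard error of 0.159. That standard error, the widest of the 7, goes with 92 to 103 reads per siYAP library and 35 to 41 per siNT library. Per kb of annotated exon, HNF4A exceeded HNF4G by a factor of 49.8 ± 3.78 in siYAP and 58.3 ± 3.10 in siNT (SD, n = 3 each), and the ratios of the groups did not overlap.

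The 3 FOXA genes differed between the groups in unlike ways. FOXA1 (ENSG00000129514, GRCh38 chromosome 14, 37589984 to 37596059, minus strand), a pioneer factor also known from breast and prostate epithelium, had 4343, 4231 and 3863 normalized counts in the siYAP libraries and 2448, 2705 and 2464 in the siNT libraries. All siYAP values were higher, with a mean of 4146 ± 251 in siYAP against 2539 ± 144 in siNT (SD, n = 3 each), a ratio of 1.63 and a log2 fold change of 0.71 (limma standard error 0.0526).

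FOXA2 (ENSG00000125798, GRCh38 chromosome 20, 22581005 to 22585455, minus strand), which is needed for foregut endoderm and acts in liver and pancreas, was lower in siYAP. Its normalized counts were 1977, 1823 and 1832 in the siYAP libraries and 2571, 2805 and 2689 in the siNT libraries. Every siYAP library was below every siNT library, at means of 1877 ± 86.6 in siYAP and 2688 ± 117 in siNT (SD, n = 3 each). The siYAP mean was 69.8% of that in siNT, a log2 fold change of -0.52 with a limma standard error of 0.0507, and 11.02% of all tested genes had a lower one.

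FOXA3 (ENSG00000170608, GRCh38 chromosome 19, 45863989 to 45873797, plus strand), the family member best known from adult liver, was low and differed little. It had 141.4, 164 and 147 normalized counts in the siYAP libraries against 129.8, 141.1 and 133 in the siNT libraries. The lowest siYAP library and the highest siNT library differed by less than a single read. The means were 151 ± 11.6 in siYAP and 135 ± 5.81 in siNT (SD, n = 3 each), with a log2 fold change of 0.16 and a limma standard error of 0.112.

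With FOXA1 higher and FOXA2 lower, the make-up of the family differed between the groups. Per kb of exon, FOXA1 made up 56.8% ± 1.06 of the 3 FOXA transcripts in siYAP and 36.8% ± 0.606 in siNT (SD, n = 3 each). FOXA2 made up 39.4% ± 1.18 in siYAP and 59.6% ± 0.607 in siNT. The ratio of FOXA1 to FOXA2 per kb was 1.44, 1.52 and 1.38 in the siYAP libraries and 0.623, 0.631 and 0.599 in the siNT libraries, so FOXA1 exceeded FOXA2 in every siYAP library and FOXA2 exceeded FOXA1 in every siNT library. A ratio within a library does not depend on how libraries were scaled. The sum of the 3 per kb was 1831 ± 86.9 normalized counts in siYAP and 1732 ± 81.6 in siNT (SD, n = 3 each), and these sums overlapped between the groups.

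**Figure D2:**
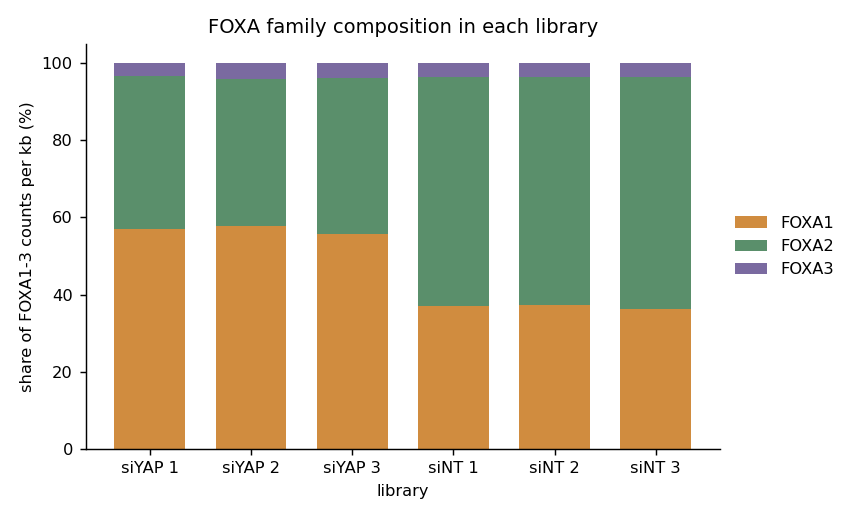
Share (%) of FOXA1, FOXA2 and FOXA3 in the summed normalized counts per kb of exon of the 3 genes, one stacked bar per library. FOXA1 takes 55.7% to 57.8% in the siYAP libraries and 36.1% to 37.3% in the siNT libraries, and FOXA3 stays between 3.37% and 4.07%.

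CDX2 (ENSG00000165556, GRCh38 chromosome 13, 27962137 to 27971139, minus strand) had 482, 420.5 and 390.0 normalized counts in the siYAP libraries and 261, 295 and 314 in the siNT libraries. The groups did not overlap, and siYAP replicate 1 was the highest. The means were 431 ± 46.9 in siYAP and 290.0 ± 27.1 in siNT (SD, n = 3 each), a ratio of 1.49 and a log2 fold change of 0.57 (limma standard error 0.0914). Without siYAP replicate 1, the highest library, the log2 fold change was 0.48.

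GATA6 (ENSG00000141448, GRCh38 chromosome 18, 22169443 to 22202528, plus strand), a zinc finger factor of endoderm and heart that is also expressed in pancreas and gut, had 736, 719 and 780 normalized counts in the siYAP libraries and 737, 813 and 831 in the siNT libraries. The value of siYAP replicate 3 was above siNT replicate 1, so the groups overlapped. The means were 745 ± 31.6 in siYAP and 794 ± 50.02 in siNT (SD, n = 3 each), a log2 fold change of -0.09 with a limma standard error of 0.0641, which came to -0.0038 when libraries were scaled to equal totals.

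Levels can be set beside each other only per length, taken here as all annotated exons of a gene together. A gene whose transcripts lack some of these exons is thus set too low. In siYAP, FOXA1 (1041 ± 63.0 normalized counts per kb of exon) came first, followed by HNF4A (942 ± 15.3) and FOXA2 (721 ± 33.3), with GATA6 (189 ± 8.02), CDX2 (105 ± 11.4), FOXA3 (68.8 ± 5.31) and HNF4G (19.0 ± 1.33) well below (SD, n = 3 each). In siNT, FOXA2 (1033 ± 44.96) led before FOXA1 (638 ± 36.2) and HNF4A (495 ± 26.1), and GATA6 (201 ± 12.7), CDX2 (70.3 ± 6.57), FOXA3 (61.4 ± 2.65) and HNF4G (8.51 ± 0.786) followed. The libraries of neighbours in these orders did not overlap, with the exception of CDX2 and FOXA3 in siNT. In siYAP the lowest FOXA1 library was at 970 and the highest HNF4A library at 955, so their order hangs on the lengths used. The first 3 were abundant transcripts in both groups: among 16743 genes with an annotated length, HNF4A stood at percentile 91.3 in siYAP and 81.2 in siNT, FOXA1 at 92.3 in siYAP and 85.4 in siNT, and FOXA2 at 87.9 in siYAP and 91.4 in siNT. HNF4G stood at percentile 25.1 in siYAP and 16.6 in siNT.

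**Figure D3:**
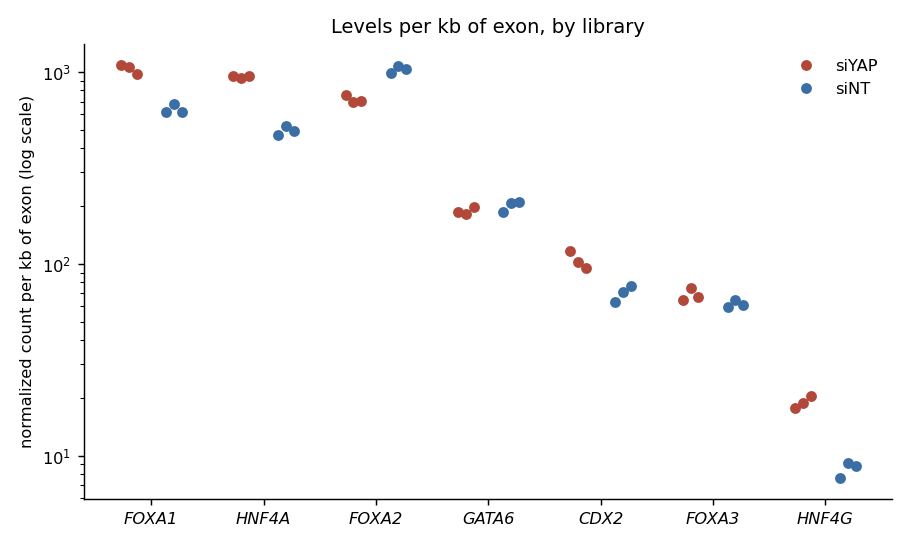
Normalized count per kb of annotated exon (vertical axis, log scale) of the 7 factors in each library, siYAP left of siNT within each gene, ordered by the siYAP mean. FOXA1, HNF4A and FOXA2 lie between 471 and 1091 in all libraries, and HNF4G lies between 7.63 and 20.4.

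Genes beside the 7 factors did not all differ in the same direction as they did, and only some of them are given here. SYMPK, 699 bases from FOXA3 on the other strand, fell (log2 -0.26, limma adjusted p = 3.80e-05). TTPAL, 41290 bases from HNF4A on the same strand, rose (log2 0.53, limma adjusted p = 7.14e-09). LINC00261, a long noncoding RNA 2363 bases from FOXA2 on the same strand that has been studied as a regulator of FOXA2 in human endoderm, had 2503 ± 3.88 normalized counts in siYAP and 2502 ± 117 in siNT (SD, n = 3 each; log2 0.0014, standard error 0.0477, limma adjusted p = 0.983), while FOXA2 was lower. TTC6, which overlaps FOXA1 on the other strand, rose, with 179 ± 13.2 in siYAP against 136 ± 21.2 in siNT (SD, n = 3 each; log2 0.40, limma adjusted p = 0.00752). The kit keeps strand, per the labels' protocols, but whether counting used it is not given in the sources used here, so reads in the shared stretch may not be separable. LINC00543, 6767 bases from CDX2, rose to 81.3 ± 5.58 in siYAP, against 51.1 ± 9.92 in siNT (SD, n = 3 each; log2 0.68, limma adjusted p = 0.00158). PDX1, the pancreatic and duodenal homeobox gene of the same ParaHox cluster, fell to 214 ± 3.53 in siYAP, against 290.2 ± 29.8 in siNT (SD, n = 3 each; log2 -0.43, limma adjusted p = 4.57e-04). GATA6-AS1, which overlaps GATA6 on the other strand, had a low level of 22.0 ± 5.97 in siYAP and 16.4 ± 5.40 in siNT (SD, n = 3 each; limma adjusted p = 0.246). Antisense RNAs annotated within HNF4A, HNF4A-AS1 among them, were not analysed here.

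For each factor the genes with the most similar course were taken, by the root mean square difference of log2(value + 1), centred per gene, over the 6 libraries and among 14128 other genes with a mean of at least 20. For HNF4A these were WIPI1 (0.0293) and OXER1 (0.0296), for HNF4G CAMK1D (0.0613) and EHHADH (0.0656), and for FOXA1 an unnamed gene, ENSG00000271851 (0.0214), and SERPINF1 (0.0318). FOXA2 was closest to HOXA11 (0.0204) and MARCKSL1 (0.0210), FOXA3 to EME2 (0.0251) and FAM200A (0.0315), CDX2 to CACFD1 (0.0522) and MCRIP1 (0.0526), and GATA6 to MMP25-AS1 (0.0234) and UBXN11 (0.0262). With 6 libraries in 2 groups, such closeness mostly says that the group difference was of like size.

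Of 17 other transcription factors of liver, 13 were measured, and 8 of them rose, 2 fell and 3 were not called. Their median log2 fold change was 0.44, and over all tested genes 28.6% were called higher and 28.1% lower. NR5A2, a nuclear receptor of bile acid and pancreatic gene control, rose most among them, to 972 ± 65.7 normalized counts in siYAP, against 305 ± 11.5 in siNT (SD, n = 3 each; log2 1.67, limma adjusted p = 1.20e-14). PPARA, the fatty acid-sensing nuclear receptor, rose by a log2 of 1.14, NR0B2, the corepressor SHP, by 1.03, and CREB3L3, a membrane-bound regulator of hepatic lipid genes, by 0.55 (limma adjusted p between 1.15e-10 and 1.49e-08). The 2 that fell were RXRA, the partner of many nuclear receptors though not of HNF4A (log2 -0.48), and CEBPB (log2 -0.47). TBX3 (log2 0.05) and HHEX (log2 -0.05, 0.04 with equal totals) did not pass, and with equal totals TBX3 was called higher (log2 0.14, limma adjusted p = 0.0205). NR1H4, NR1I2 and NR1I3 were not analysed here.

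Gut and foregut factors went both ways: of 20, 12 were measured, 3 rose, 6 fell and 3 were not called, with a median log2 fold change of -0.20. Over all tested genes 28.6% were called higher and 28.1% lower, so calls in both directions are not particular to this list. SPDEF, a factor of goblet cells, rose to 125 ± 9.76 normalized counts in siYAP, against 35.2 ± 9.36 in siNT, and ISX, an intestinal homeobox factor, to 137 ± 11.8 in siYAP, against 58.0 ± 3.82 in siNT (SD, n = 3 each; limma adjusted p = 9.12e-09 and 9.31e-08). SOX9, a factor of crypt progenitors and bile ducts, fell to 1237 ± 75.1 in siYAP, against 2972 ± 47.7 in siNT (SD, n = 3 each; log2 -1.27, limma adjusted p = 8.20e-15). The epithelial factors KLF5 (log2 -0.30), KLF4 (log2 -0.27) and ELF3 (log2 -0.29) fell slightly. MNX1 (log2 0.09) and SOX2 (log2 -0.13) did not pass, and with equal totals MNX1 was called higher (log2 0.18, limma adjusted p = 0.0419). CDX1, the closest paralog of CDX2, was not analysed here.

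Among paralogs of the GATA and CDX factors, 2 of 7 were measured. GATA2, a factor of blood and endothelium, fell to 1543 ± 118 normalized counts in siYAP, against 1964 ± 116 in siNT (SD, n = 3 each; log2 -0.35, limma adjusted p = 2.77e-05). GATA3, a factor of T cells and several epithelia, was at 908 ± 55.3 in siYAP and 830.1 ± 16.7 in siNT (SD, n = 3 each; log2 0.13, limma adjusted p = 0.0756), and passed with equal totals (log2 0.22, limma adjusted p = 0.00448), with upper-quartile factors (0.0429) and without siYAP replicate 3 (0.0253). Of 10 early endoderm genes, 3 were measured: EOMES, a T-box factor of the primitive streak, rose to 107 ± 10.3 in siYAP, against 44.8 ± 11.2 in siNT (SD, n = 3 each; log2 1.26, limma adjusted p = 2.79e-06), and CXCR4 (log2 -0.79) and TDGF1 (log2 -0.04, 0.04 with equal totals) were near the floor and not called. CXCR4 was called lower without siYAP replicate 1 (limma adjusted p = 0.0259) and without siNT replicate 2 (0.0461).

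**Figure D4:**
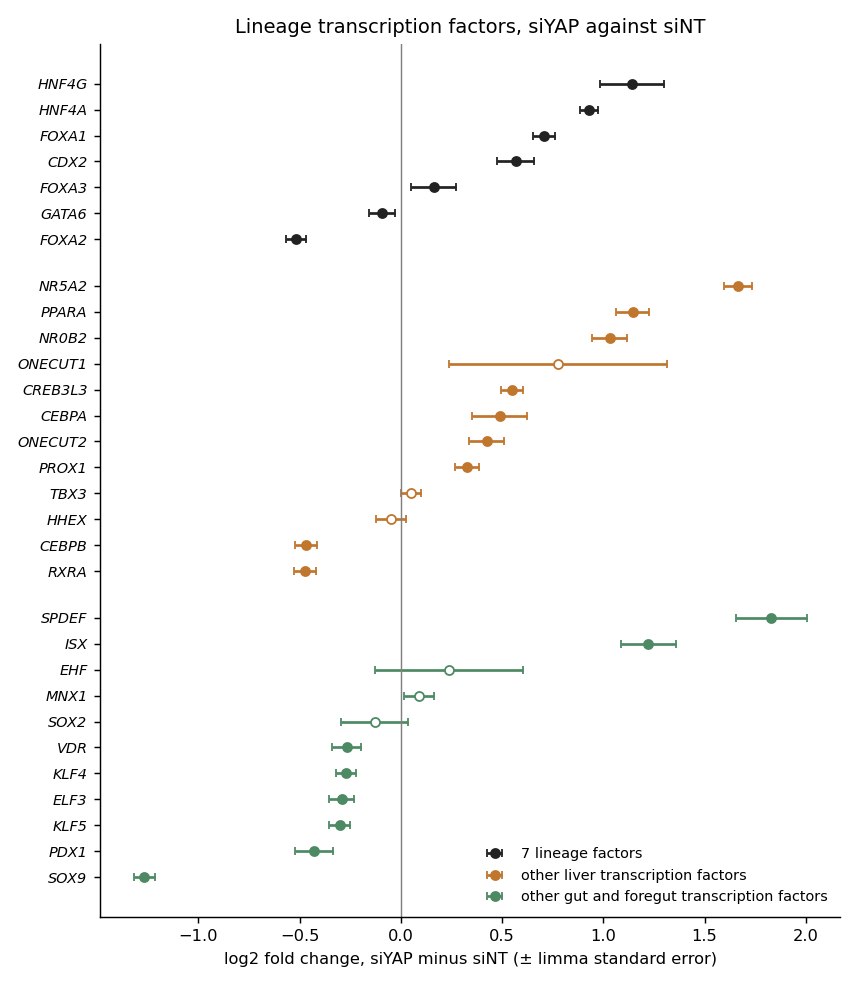
Log2 fold change of siYAP over siNT on the log2(value + 1) scale (horizontal axis), with the limma standard error as a bar, for the 7 factors and for other liver and gut transcription factors; in those 2 lists a filled point passed an adjusted p of 0.05 and an open point did not, while the points of the 7 factors are filled with no test. The 7 factors run from 1.14 for HNF4G to -0.52 for FOXA2, and SOX9 is lowest at -1.27.

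Genes that hepatocytes secrete or use as enzymes, many of them textbook targets of HNF4A and FOXA factors, rose in 19 of 22 measured cases, with none lower and 3 not called (APOA2, F2 and TAT), out of 28 listed. Over all genes 28.6% were called higher. The list was chosen with earlier results of these data known, so its count is a description. APOB and APOC3, both among those that rose, passed the filter on low values only through their siYAP libraries. The median log2 fold change of the list was 2.82 as fitted, and 2.74 with APOB, which had no read in siNT, placed at its lower bound. VTN, plasma vitronectin, rose to 1839 ± 44.4 normalized counts in siYAP, against 65.0 ± 9.31 in siNT, SERPINA1, the antitrypsin gene, to 355 ± 11.7 in siYAP, against 29.9 ± 2.36 in siNT, and the fibrinogen chain genes FGB to 2671 ± 75.7 in siYAP, against 337 ± 41.0 in siNT, and FGA to 1018 ± 60.8 in siYAP, against 126 ± 27.9 in siNT (SD, n = 3 each; limma adjusted p between 3.59e-20 and 1.07e-15). APOA2 was at 121 ± 12.5 in siYAP and 117 ± 11.3 in siNT, and F2, prothrombin, at 43.4 ± 6.87 in siYAP and 50.7 ± 7.18 in siNT (SD, n = 3 each; limma adjusted p = 0.764 and 0.330). Albumin, the defining hepatocyte product, had 69.8, 57.2 and 71.3 normalized counts in the siYAP libraries and 7.33, 13.9 and 4.83 in the siNT libraries, without overlap between the groups.

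Intestinal and gastric epithelial genes rose in 14 of 17 measured cases, with 1 lower and 2 not called, out of 25 listed, at a median log2 fold change of 1.38. APOA4, among the 14 that rose, passed the filter on low values only through its siYAP libraries. With only genes at a mean of at least 10 kept, 13 of the list were called higher and 1 lower. Over all tested genes 28.6% were called higher and 28.1% lower, and this list too was chosen with earlier results of these data known. CDH17, liver-intestine cadherin and a known target of CDX2, rose to 18659 ± 337 normalized counts in siYAP, against 5754 ± 264 in siNT, and VIL1, the brush border protein villin, to 13249 ± 203 in siYAP, against 3120 ± 300 in siNT (SD, n = 3 each; log2 1.70 and 2.09). MEP1A, a brush border metalloprotease, rose by a log2 of 4.03, and MYO1A, the microvillus motor, by 2.63 (limma adjusted p of these 4 between 2.94e-18 and 1.24e-16). TFF2, a gastric trefoil peptide gene, fell in the limma fit (log2 -0.30, limma adjusted p = 0.0287). The list had 0 lower calls with equal totals, with DESeq2 and in 5 of the 6 fits with a library left out, all but that without siNT replicate 1. KRT20, a marker of mature enterocytes, was at 0 in 3 of the 6 libraries and reached 2.09 normalized counts, and CEACAM5 reached 9.97.

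**Figure D5:**
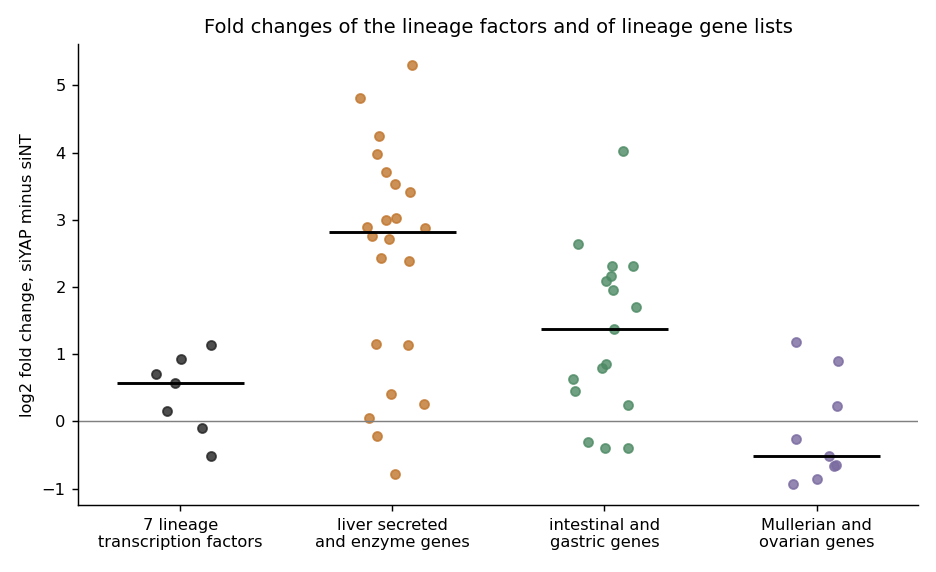
Log2 fold change of siYAP over siNT (vertical axis) of each measured gene of the 7 lineage factors and of the lists of liver, intestinal and gastric, and Mullerian and ovarian genes; horizontal bars are medians. The medians are 0.57, 2.82, 1.38 and -0.51, so the liver list lies further from 0 than the factors do.

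The labelled cell type was checked against its markers. Of 15 Mullerian and ovarian carcinoma genes, 9 were measured, of which 1 rose, 4 fell and 4 were not called, with a median log2 fold change of -0.51. The shares to set beside this and the marker counts below are 28.6% higher and 28.1% lower over all tested genes. PAX8, the lineage factor of the Mullerian duct, was scarce, with 16.3, 21.7 and 13.3 normalized counts in siYAP and 20.9, 44.9 and 20.5 in siNT, and MUC16, which encodes CA125, was at 12.7, 10.9 and 19.0 in siYAP and 8.38, 11.8 and 15.7 in siNT. HOXA9 (log2 -0.86), HOXA10 (log2 -0.67), HOXA11 (log2 -0.51) and MECOM (log2 -0.94) fell, and CRABP2 rose (log2 0.90), while WT1, EMX2, ESR1, PGR, WFDC2 and SPON1 were not analysed here. Of markers of other cell types, 4 of 6 immune markers were measured, with summed levels of 130.3 to 146 in siYAP and 153 to 172 in siNT. CD79A (log2 -1.40, limma adjusted p = 3.58e-06) and LYZ (log2 -1.59, limma adjusted p = 2.37e-04) fell, CD14 rose (log2 0.45, limma adjusted p = 0.0201) and ITGAM was not called. The call of CD14 was lost in DESeq2 (adjusted p = 0.0613), without siYAP replicate 1 (limma adjusted p = 0.118) and without siNT replicate 1 (limma adjusted p = 0.0825). Of 5 endothelial markers 1 was measured, ESAM, which fell, with 1261 to 1338 in siYAP and 1673 to 1873 in siNT. Of 6 fibroblast markers 5 were measured, 4 of which rose and 1 fell, with summed levels of 14297 to 14803 in siYAP and 5594 to 6387 in siNT, most of it LUM and COL3A1. The call of PDGFRB, among these 4 (log2 0.99), was lost without siYAP replicate 2 (limma adjusted p = 0.104) and without siNT replicate 3 (log2 0.58, limma adjusted p = 0.137). It was also lost in limma without trend (adjusted p = 0.0833) and in DESeq2 (adjusted p = 0.0906). None of the 17211 genes with deposited values was at 0 in all libraries. No measured marker could thus be at 0 throughout, and that is no check of the cell type. Nothing follows for the listed markers that were not measured. The part of the measured markers in the differences above was not tested.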

How the data were processed

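Poly(A) RNA-seq of 3 siYAP and 3 siNT libraries of CAOV2 cells was used, grouped by sample titles. The tools named in the submitters' processing notes are FastQC, HISAT2, HTSeq and DESeq2, and the builds named there are hg19 and mm9. For their versions and roles, the annotation and the strand setting: not given in the sources used here. Deposited signal values are gene counts over a library's size factor: dividing by each library's lowest value above 0 gave whole reads for 100% of values (tolerance 0.01 of a read). Low genes are thus limited by counting error.

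From these, log2(value + 1) was fitted with limma 3.58.1 (trend, robust; R 4.3.3) on group alone, keeping the 17200 of 17211 genes that reached 1 in 3 libraries. A gene was called when its Benjamini-Hochberg adjusted p was under 0.05. Log2 fold changes on that scale understate low genes. The recovered reads were also tested with edgeR 4.0.16 (4916 higher, 4655 lower) and DESeq2 1.42.0 (4393 higher, 4385 lower).

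The 7 factors and the gene lists were chosen with earlier results of these data known. From each list up to 4 called genes (6 for transcription factors) with the smallest p and up to 2 others were named; CEBPB, TAT, TFF2, PDX1, ALB and the genes under other observations were named after their values were seen. Some listed genes are not reported here by name. A list of human gene names had an entry for 16662 of the 17211 identifiers. With names from GENCODE 29 added, 15674 had a symbol other than the identifier itself. Exon lengths and coordinates are those of GENCODE 29 on GRCh38, and upstream windows those of RefSeq, since the deposited values carry none. Protein sequences were not used here. Other scalings, filters, a pseudocount of 0.1, a fit with no trend, a block for replicate number and leaving out each library were tried.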

Additional observations from a re-analysis of the deposited data

How the results depend on the processing

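For the 7 factors the direction held under all 16 alternatives, but many of these could not have changed it. Other filters, the fit with no trend and the replicate block leave a factor's log2 fold change as it was. Where the groups did not overlap, leaving out a library cannot reverse the sign. The log2 fold change ran from 0.89 to 1.02 for HNF4A, from 1.07 to 1.23 for HNF4G, from 0.67 to 0.79 for FOXA1, from -0.56 to -0.43 for FOXA2, from 0.10 to 0.25 for FOXA3, from 0.48 to 0.66 for CDX2 and from -0.14 to -0.0038 for GATA6, the highest value coming with equal totals in each. Equal totals moved the median of all genes by 0.0862. Calls over the whole table came to between 4383 and 6050 higher and between 3700 and 4880 lower. The calls in the paralog list came to 2 with upper-quartile factors and with equal totals, against 1, and to between 1 and 2 with a library left out; those in the early endoderm list came to between 1 and 2 with a library left out. With equal totals HHEX (0.0393), TDGF1 (0.0357) and MMP25-AS1 (0.0243) changed sign. With a library left out the log2 fold change of APOA2 ran from -0.0311 to 0.131, that of SOX2 from -0.2524 to 0.064, that of TDGF1 from -0.2642 to 0.117, that of CEACAM5 from -0.6542 to 0.0805 and that of MNX1 from -0.0027 to 0.164. None of these passed in the fit reported, and the cause was not tested. Equal totals gave 11 calls among the liver factors, against 10, and 10 among the gut factors, against 9. The liver gene list had 18 higher and 1 lower in limma without trend, against 19 and 0.

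Same-numbered libraries did not deviate together (Pearson's r of deviations from the group means -0.171, 0.0034 and 0.005 for replicates 1, 2 and 3), so the numbers were taken as names only. With the replicate number as a block, 4654 genes were higher and 4487 lower, with 10 calls among the liver factors and 9 among the gut factors. PAX8 was called lower with the block (log2 -0.65, limma adjusted p = 0.0463), in edgeR (adjusted p = 0.0442), and in limma without siYAP replicate 2 (0.0426), without siNT replicate 1 (0.0262) and without siNT replicate 3 (0.038). At 35 to 41 reads per siNT library, the precision of HNF4G is limited by depth.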

Other observations

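Several apolipoprotein and plasma carrier genes of the liver list rose from low levels; they were picked out after their values were seen. APOB had 12.7, 20.7 and 12.4 normalized counts in the siYAP libraries and no read in any siNT library, which makes it at least 4.59-fold higher in the mean against a floor of 3 reads per siNT library. TTR, transthyretin, was at 168 ± 4.203 in siYAP and 8.32 ± 3.08 in siNT, APOA1 at 107 ± 11.4 in siYAP and 15.8 ± 4.397 in siNT, and APOH at 479 ± 19.0 in siYAP and 46.6 ± 17.7 in siNT (SD, n = 3 each; limma adjusted p between 8.81e-13 and 8.01e-07). AGT, angiotensinogen, had the highest fitted log2 fold change of the list, 5.30 with a pseudocount of 1; that of APOB has only a lower bound. Upstream windows of 250 bases were at hand for 14 genes of the liver list and 10 of the intestinal list. The FOXA letters were in 1 of the 14 and 0 of the 10, beside 3.66% of all genes with a window. The HNF4 letters were in 0 of the 14 and 3 of the 10, beside 3.59%. The GATA letters were in 3 and 0, beside 11.1%, the CDX letters in 4 and 2, beside 10.9%, and the TEAD letters in 3 and 2, beside 14.3%. From these letters nothing is drawn about the factors.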
